A study of Mus musculus with 6 samples.

Results

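The proteasome is the protease complex that degrades ubiquitin-tagged proteins, and the genes described here encode its subunits, activators and assembly factors. Members were the genes of the count table whose symbols begin with Psma, Psmb, Psmc, Psmd, Psme, Psmf or Psmg followed by a digit, after the immunoproteasome subunits Psmb8, Psmb9 and Psmb10 had been set aside as a comparison. That left 47 of 15454 genes. One of them, Psmc3ip, is a meiotic recombination gene that matched by name only, so 46 proteasome genes remained: 16 of the 20S core, 17 of the 19S cap and 13 regulators and assembly factors. A total of 45 had enough counts to be tested, among 12411 tested genes. The exception was Psmb11, the thymus-specific catalytic subunit, with 1 count in each library.

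Livers were taken from male C57BL/6 mice, 8 to 10 weeks old, after warm ischemia-reperfusion (I/R) injury of 75% of the liver. The I/R group (3 livers) received vehicle, and the I/R+Rk2 group (3 livers) received ginsenoside Rk2, a saponin derived from ginseng. Dosing took place 2 days before surgery and again at the start of reperfusion. All 6 livers were injured, no sham-operated liver was analysed here, and the comparison asked which transcripts differed with Rk2 in injured liver. The labels number the livers but do not state that each came from a different mouse, so p-values measure the spread between these samples.

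The 20S core is a barrel of stacked rings: the outer alpha rings gate the entrance, and the inner beta rings carry the cutting sites. The 19S cap sits on the end of the barrel, where a ring of ATPases unfolds the substrate and the lid removes its ubiquitin chain. Other activators, PA28 and PA200, can dock in place of the cap, and dedicated chaperones, which are not part of the finished complex, put the core and the cap together. In most cells, liver cells included, the transcription factor NRF1 (Nfe2l1) raises the genes of many subunits together when proteasome activity falls short, through antioxidant response elements in their promoters.

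The libraries held between 16809613 and 35618074 counts. Their composition differed by group: the scaling factors (trimmed mean of M values, TMM) were 1.01 to 1.14 for I/R and 0.914 to 0.975 for I/R+Rk2. Marker genes of other cells moved strongly. All 7 monocyte markers were called lower, with a summed level of 175 to 206 counts per 1000000 (CPM) in I/R and 9.65 to 17.2 in I/R+Rk2, and 6 of 7 neutrophil markers were called lower (491 to 605 against 89.5 to 212 CPM). The Kupffer cell list had 1 of 7 markers called lower (71.9 to 113 against 58.9 to 72.2 CPM), the endothelial list 2 of 6 higher and 3 lower (169 to 171 against 129 to 165 CPM), and the T and NK cell list only 1 tested gene. The hepatocyte list, which checks the labelled tissue, had 4 of 7 markers called higher and 1 lower (59700 to 70900 against 92600 to 116000 CPM). Among marker genes with a row in the count table, none was at 0 in all libraries. Of the 6 T and NK cell markers listed, 5 had such a row. In bulk tissue, fewer cells of a type and less RNA per cell cannot be told apart, and the part of these shifts in the proteasome values was not tested.

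Proteasome transcripts moved little. A gene was called with an adjusted p below 0.05 in edgeR's quasi-likelihood test (Benjamini-Hochberg adjustment over all genes tested). By this rule 7 of the 45 tested members were higher in I/R+Rk2 and 0 were lower. They were the core subunits Psma3, Psma4 and Psmb2, the activator subunits Psme1 and Psme2, and the assembly factors Psmd10 and Psmg1. Over all genes tested, 20.3% were called higher and 23.7% lower, 43.9% in all, against 15.6% of members. At an unadjusted p below 0.05 there were 16 members higher and 1 lower, against 3097 and 3453 of the 12411 genes tested. DESeq2 called 7 members higher and 0 lower, against 2603 and 2898 of all genes. No member passed the additional limit of a 2-fold change that the study used, which 14.6% of all genes passed.

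The small number of calls went with small changes rather than with wide errors. Member log2 fold changes (I/R+Rk2 over I/R) ran from -0.34 to 0.56, with an SD over genes of 0.19 against 0.94 over all genes tested, and their median absolute size was 0.15 against 0.44. The livers within a group lay close together: the median coefficient of variation of a member was 4.33% in I/R and 5.83% in I/R+Rk2, against 11.1% and 13.7% over all genes. The 14 tested partners of the complex outside the naming rule were alike. Their SD over genes was 0.18, their median absolute size 0.17 and their median coefficients of variation 5.69% and 6.4%. In 44 of 45 members the 95% interval of the fold change lay wholly within a 2-fold change in either direction, as it did for 7187 of the 12411 genes. In 33 members it lay within 0.5 on the log2 scale, as it did for 2152 of all genes. Psma8, the testis-specific alpha subunit, was the exception at 0.313 to 0.918 CPM in the 6 livers. The livers of the 2 groups did not overlap in 25 members (21 higher and 4 lower). Over all genes tested the livers did not overlap in 57.4%, with 27.1% higher and 30.3% lower, so members were near the background in all, above it for higher and below it for lower.

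**Figure D1:**
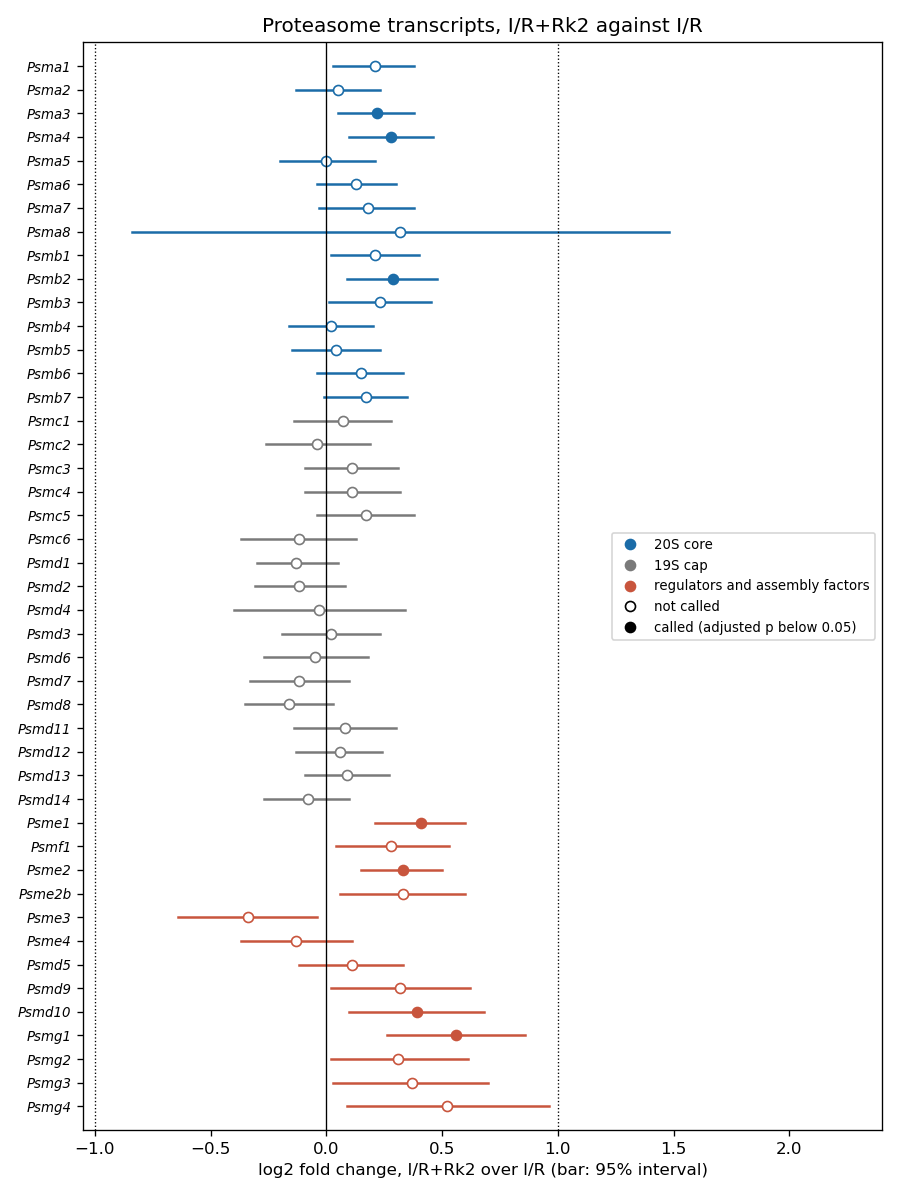
Log2 fold change (I/R+Rk2 over I/R, horizontal axis) of the 45 tested members, with the 95% interval as a bar; filled points passed the test. Dotted lines mark a 2-fold change. Core genes lie at or to the right of 0, cap genes on both sides of it, and only the interval of Psma8 crosses a dotted line.

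Core, cap and regulators did not share a common shift. The median log2 fold change was 0.18 over the 15 tested core genes (3 called higher, 0 lower). It was -0.03 over the 17 cap genes (0 called in either direction), beside -0.01 over all genes tested. For the 13 regulators and assembly factors it was 0.33 (4 called higher, 0 lower). Of all genes tested, 20.3% were called higher and 23.7% lower. The share called higher was near that background in the core, above it in the regulators and below it in the cap. The share called lower was below the background in each class. All 15 core genes had a fitted value of 0 or above under TMM scaling, but 9 of 15 did when libraries were scaled by their size alone and 7 of 15 once the trend with transcript length was removed. Among cap genes 8 lay above 0 and 9 below. Summed over its 16 genes, the core stood at 1084, 1111 and 1127 CPM in the I/R livers and at 1241, 1248 and 1208 in the I/R+Rk2 livers. The cap stood at 1397, 1405 and 1345 CPM against 1412, 1392 and 1289. Under TMM scaling, the only one used for these sums, the core did not overlap between groups, whereas the cap did. The ratio of core to cap within a liver, which no library scaling can move, was 0.776, 0.791 and 0.838 in I/R and 0.879, 0.897 and 0.937 in I/R+Rk2. From summed FPKM the same ratio was 1.17, 1.15 and 1.22 against 1.27, 1.32 and 1.41. Both versions were 1.13 times as high in I/R+Rk2 and did not overlap, but neither removes a trend of the fold change with transcript length.

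**Figure D2:**
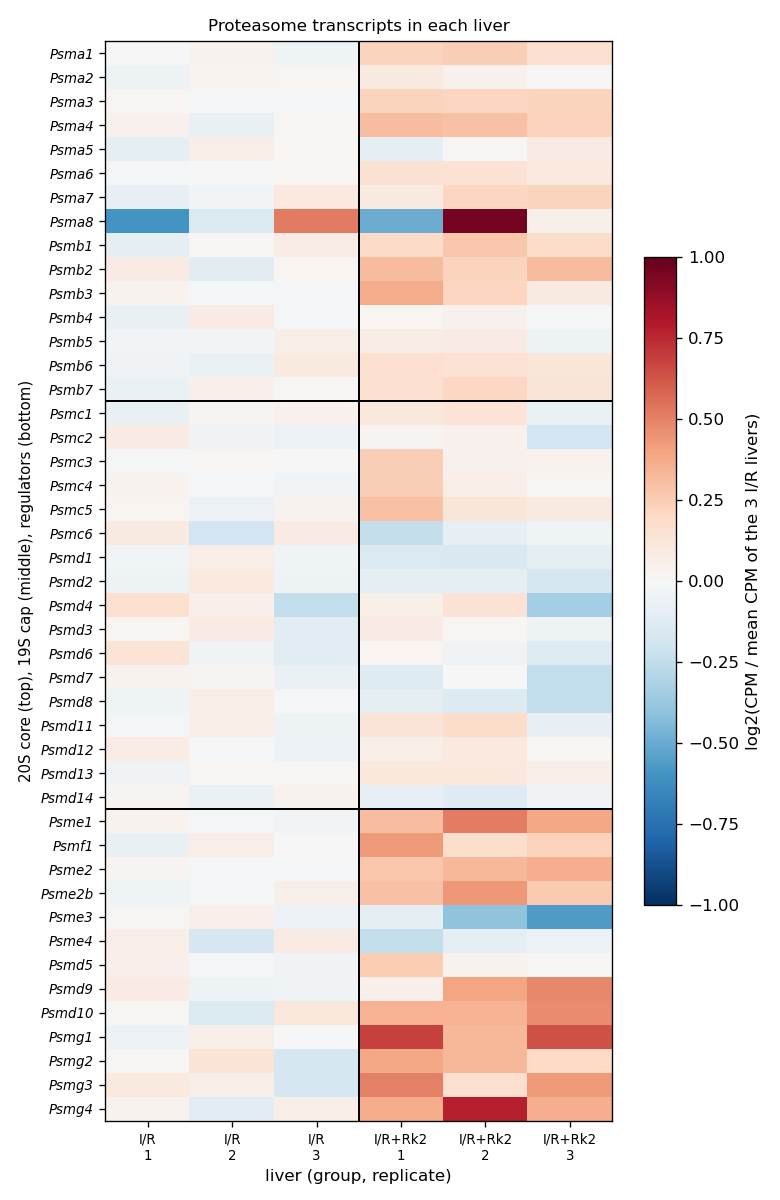
Level of each tested member in each of the 6 livers, as log2 of its CPM over the mean CPM of the 3 I/R livers (colour scale). The core (top) is mostly red in the I/R+Rk2 livers, the cap (middle) is near white or mixed, and most regulators (bottom) are red, with Psme3 in blue.

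Transcript length moved with these classes. Across the 12210 tested genes with a length in GENCODE M21, the median log2 fold change fell from 0.26 in the shortest of 8 equal groups to -0.31 in the longest, and Spearman's rho between change and length was -0.233. The share called higher was 33.0% in the shortest group, 28.6% in the next and 9.44% in the longest. The share called lower was 11.5%, 16.4% and 37.2% in the same groups. Proteasome transcripts were short, with a median of 1382 bases against 2650.8 over all genes, and 30 of 45 lay in the 2 shortest groups (17 and 13). Core transcripts had a median of 1160 bases and cap transcripts of 1591. Over the 45 members rho was -0.57, as a description of points that share the same 6 libraries. With the length trend removed from the fit, the class medians were -0.01 for the core, -0.05 for the cap and 0.17 for the regulators, and the called members became Psmd5 (higher, log2 fold change 0.30, adjusted p = 0.0448) and Psmd8 (lower, -0.29, adjusted p = 0.0266). None of the 7 calls was kept.

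**Figure D3:**
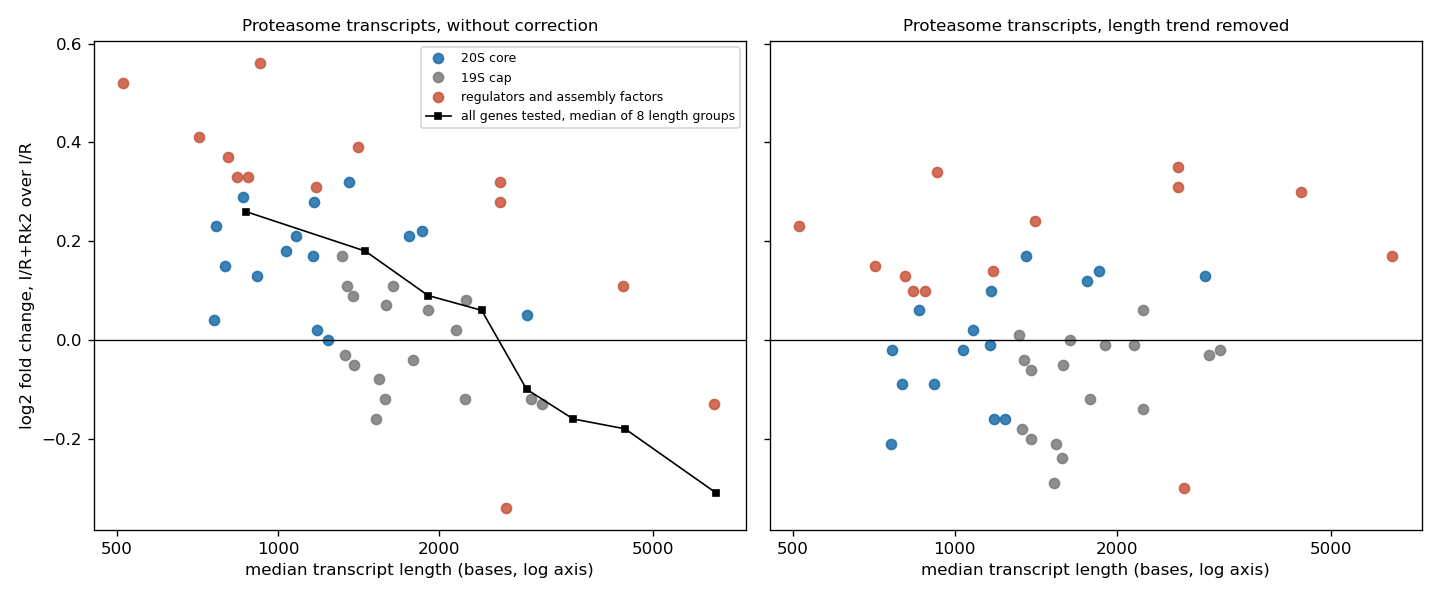
Log2 fold change (vertical axis) against median transcript length in bases (log axis) for the 45 tested members, before (left) and after (right) the trend with length was removed. Black squares join the medians of 8 length groups of all tested genes, from 0.26 to -0.31; cap points lie mostly below that line and core points on both sides, and in the right panel both classes scatter about or below 0.

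In absolute terms the subunits were well expressed. Compared per length as FPKM (fragments per kilobase of transcript per 1000000 fragments, mean of 6 livers), core genes without Psma8 ranged from 21.7 for Psma2 to 111 for Psmb4, with a median of 75.2 FPKM. The FPKM of Psma2 depends on its long median transcript (2911 bases). Its mean CPM in I/R (66.2) was near that of Psma7 (66.6 CPM, 1035.5 bases, 67.2 FPKM). Cap genes ranged from 29.6 for Psmc6 to 106 for Psmd8, with a median of 42.5 FPKM. Regulators were spread most widely, from 5.9 FPKM for Psmd10 to 89.3 for Psme1, with a median of 9.88. The PA28 genes Psme1, Psme2 (72.3 FPKM) and Psme3 (33.9 FPKM) stood apart from the other 10 regulators, which did not exceed 13.6 FPKM. All members together took 0.266% to 0.328% of the counts of a library, with overlapping groups.

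**Figure D4:**
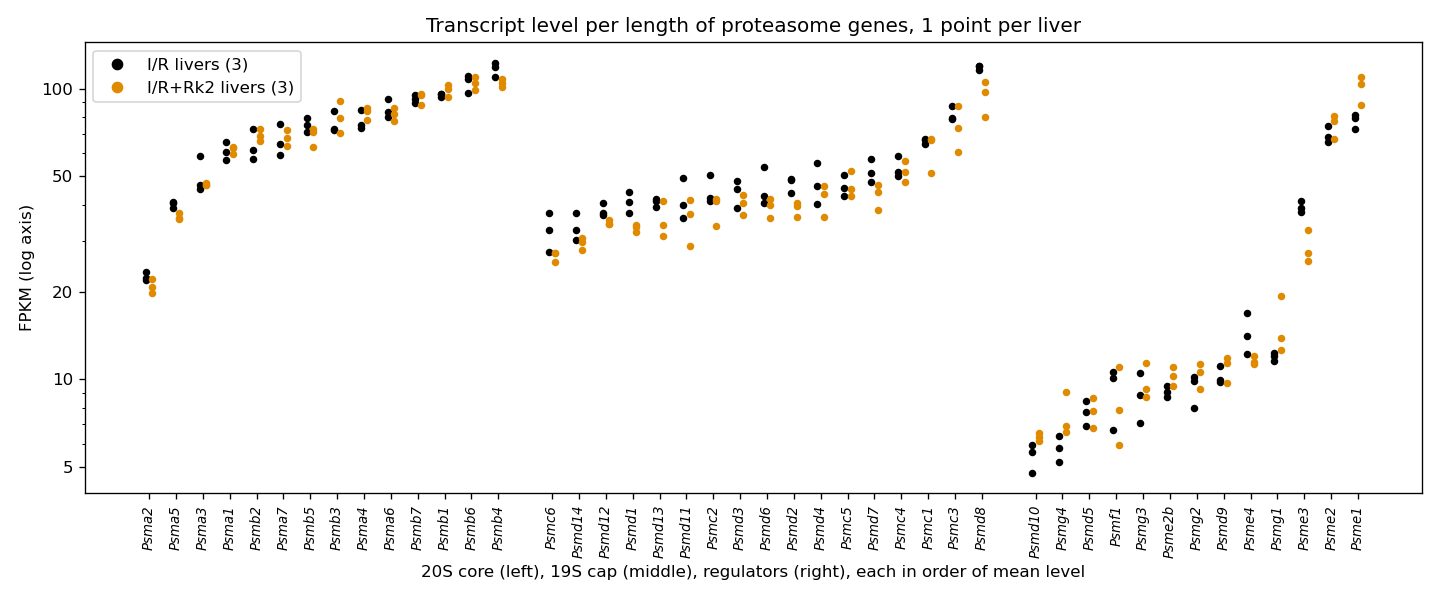
FPKM (log axis) of the tested members other than Psma8 in each liver, black for I/R and orange for I/R+Rk2, ordered by mean level within the core, the cap and the regulators. Core genes (median 75.2) lie mostly above cap genes (median 42.5), and all regulators but the PA28 genes Psme1, Psme2 and Psme3 lie below 20 FPKM; FPKM carries no correction for library composition.

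Within the alpha ring, Psma3 and Psma4 rose. Psma4 (chr9:54950790-54958030, mm10, plus strand) stood at 85.9, 79.1 and 84.5 CPM in I/R and at 103, 102 and 97.5 in I/R+Rk2, which is 0.28 ± 0.08 on the log2 fold scale (SE, n = 3 per group; edgeR adjusted p = 0.0236). Psma3 (chr12:70974621-70996347, plus strand) stood at 81.1, 79.2 and 79.5 CPM against 93.1, 92.8 and 93.2, which is 0.22 ± 0.07 on the log2 fold scale (edgeR adjusted p = 0.0396). Neither gene overlapped between groups, and the 3 treated livers were almost level for Psma3. Psma3 lost its call whichever library was left out (adjusted p from 0.0641 to 0.122), and Psma4 lost it without I/R replicate 2, I/R replicate 3 or I/R+Rk2 replicate 2 (0.0696, 0.0685 and 0.0686). Psma1 was similar in size, with 68.6, 70.3 and 66.7 CPM against 79.8, 81.1 and 76.5, but missed the threshold (0.21 on the log2 scale, edgeR adjusted p = 0.0567). At the other end, Psma5 had a log2 fold change of 0.00 with a 95% interval from -0.20 to 0.21, and its livers overlapped.

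In the beta ring only Psmb2, a structural subunit, was called. It stood at 57.6, 50.5 and 55.3 CPM in I/R and at 67.7, 63.7 and 67.8 in I/R+Rk2 (log2 fold change 0.29 ± 0.08, edgeR adjusted p = 0.0308); left out singly, each library except I/R replicate 1 ended the call (highest adjusted p = 0.0895). Psmb3, another structural subunit, ranged from 58.5 to 60.7 CPM in I/R and from 63.2 to 76.5 in I/R+Rk2 (0.23, edgeR adjusted p = 0.0818), and passed without I/R+Rk2 replicate 3 (0.0474) and with upper-quartile scaling (0.0434). The cutting subunits did not pass. Psmb5, the chymotrypsin-like site, stood at 64.6, 64.8 and 68.6 CPM against 69.3, 70.0 and 63.8, a log2 fold change of 0.04 with an interval from -0.15 to 0.23. Psmb6, the caspase-like site, had 83.1, 80.9 and 90.8 CPM against 95.6, 93.9 and 92.2 (0.15, edgeR adjusted p = 0.178). Psmb7, the trypsin-like site, had 104, 113 and 110 CPM against 122, 126 and 119 (0.17, edgeR adjusted p = 0.115). The livers overlapped for Psmb5 and not for Psmb6 or Psmb7. Near-identical transcripts of other genes, mostly pseudogenes, matched 11 members, Psma3, Psma4, Psmb3 and Psmb5 among them, and 255 bases of the Psmb7 transcript are antisense to Nek6, so the split of reads there is uncertain.

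Immunoproteasome subunits replace the 3 cutting subunits in immune cells and under interferon. Psmb9, which takes the place of Psmb6, stood at 5.63, 4.80 and 6.46 CPM in I/R and at 7.44, 10.6 and 8.35 in I/R+Rk2 (log2 fold change 0.65 ± 0.18, edgeR adjusted p = 0.0263). Psmb8, which replaces Psmb5, had 17.3, 19.2 and 20.5 CPM against 24.6, 22.8 and 24.6 (0.34 ± 0.10, edgeR adjusted p = 0.0329). Psmb10, which replaces Psmb7, ranged from 13.8 to 19.4 CPM in I/R and from 14.7 to 19.3 in I/R+Rk2 (0.06, edgeR adjusted p = 0.788). The first 2 rose while the monocyte and neutrophil markers fell, and a link between these changes was not tested. The Psmb8 call was lost whichever library was left out (adjusted p from 0.0543 to 0.0940), and the Psmb9 call without I/R replicate 1, I/R replicate 2 or I/R+Rk2 replicate 2 (0.0676, 0.0775 and 0.0864). Both calls were also lost with the length trend removed (Psmb8 0.22, adjusted p = 0.128; Psmb9 0.49, adjusted p = 0.0658) and with library size alone (adjusted p = 0.240 and 0.0824).

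A ratio of 2 FPKM values within a liver does not depend on library scaling. The ratio of Psmb8 to Psmb5 was 0.139, 0.159 and 0.160 in I/R and 0.189, 0.172 and 0.205 in I/R+Rk2. For Psmb9 to Psmb6 it was 0.0404, 0.0376 and 0.0446 against 0.0474, 0.0683 and 0.0632. Neither ratio overlapped between groups, but 3 livers against 3 cannot give a two-sided exact permutation p below 0.10, and both had p = 0.1 (0.15 adjusted over the 3 ratios). The ratio of Psmb10 to Psmb7 overlapped, at 0.186, 0.118 and 0.120 against 0.156, 0.121 and 0.123 (exact permutation p = 1.0). In every liver all 3 ratios stayed below 0.21, so the standard cutting subunits were the more abundant transcripts throughout.

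**Figure D5:**
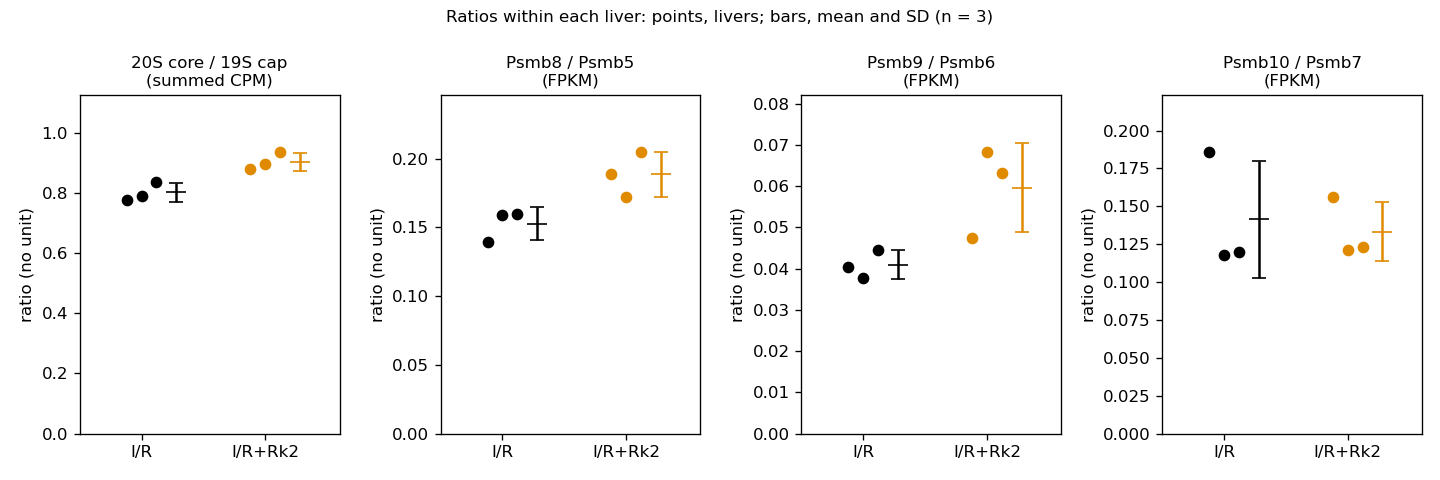
Ratios within each liver (vertical axes start at 0): summed CPM of the 20S core over the 19S cap, and FPKM of each immunoproteasome subunit over the standard subunit it replaces. Points are livers and bars are the mean and SD of 3; the first 3 panels do not overlap between groups, and the Psmb10 panel does.

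None of the 17 cap genes passed in either direction, and none had an unadjusted p below 0.05. All 17 intervals lay within 0.5 on the log2 scale, between -0.40 and 0.38. The 6 ATPases that unfold substrates had a median log2 fold change of 0.09, with the highest value of the cap in Psmc5, at 62.4, 58.9 and 63.1 CPM against 75.2, 67.0 and 65.3 (0.17, edgeR adjusted p = 0.153). The 3 other base subunits had a median of -0.12, among them the large scaffold subunit Psmd1 at 119, 127 and 118 CPM against 110, 109 and 114 (-0.13, edgeR adjusted p = 0.209). The 8 lid genes had a median of -0.01. Psmd8, the lid subunit with the lowest value, stood at 130, 140 and 132 CPM in I/R and at 126, 122 and 113 in I/R+Rk2 (-0.16, edgeR adjusted p = 0.153), with no overlap between groups. Under library size alone Psmd1 and Psmd8 were called lower (adjusted p = 0.0437 and 0.0446), a scaling that lowered the median of all genes to -0.17.

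Of the alternative activators, both chains of PA28 alpha-beta rose. Its genes lie close together on chromosome 14, and the ring they form opens the core without ATP and is induced by interferon gamma. Psme1 (PA28 alpha, chr14:55578123-55581529, plus strand) stood at 52.0, 50.4 and 49.8 CPM in I/R and at 63.0, 72.2 and 66.5 in I/R+Rk2, which is 0.41 ± 0.08 on the log2 fold scale (edgeR adjusted p = 0.00801). Psme2 (PA28 beta, chr14:55587441-55591113, minus strand) stood at 46.5, 45.3 and 45.0 CPM against 55.4, 57.5 and 58.8, which is 0.33 ± 0.07 on the log2 fold scale (edgeR adjusted p = 0.0116). Every treated liver lay above every vehicle liver for both genes, and both calls were kept in all 6 fits that left out 1 library. Neither passed with the length trend removed (log2 fold change 0.15 and 0.10, adjusted p = 0.207 and 0.310) or with library size alone (0.119 and 0.246). Psme2b, on chromosome 11, shares 99.37% identity with Psme2 over 794 bases of transcript, so reads of the pair cannot be assigned with certainty; it had 7.46, 7.61 and 8.01 CPM against 9.41, 10.4 and 9.21 (0.33, edgeR adjusted p = 0.0504).

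The remaining activators and the inhibitor did not pass. Psme3 (PA28 gamma), the nuclear activator, had the lowest fold change of all members, at 85.4, 87.8 and 81.5 CPM in I/R and 79.9, 64.2 and 57.3 in I/R+Rk2 (-0.34 ± 0.13, edgeR adjusted p = 0.0681). Its treated livers differed among themselves, and without I/R+Rk2 replicate 1 it was called lower (-0.49, adjusted p = 0.00773). Library size alone also called it lower (adjusted p = 0.0361), as did each of the 3 limma fits on FPKM. With the length trend removed it was not called (-0.30, edgeR adjusted p = 0.101). Psme4 (PA200), a single-chain activator, ranged from 77.3 to 92.0 CPM against 73.4 to 83.4 (-0.13, edgeR adjusted p = 0.328). Psmf1 (PI31), described as an inhibitor of the core, ranged from 18.9 to 20.8 CPM against 22.5 to 26.7 (0.28, edgeR adjusted p = 0.0626).

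The 4 chaperones that assemble the core had a median log2 fold change of 0.45, and Psmg1 and Psmg4 had the highest values among the members. Psmg1 and Psmg2 pair to start the alpha ring, and Psmg3 and Psmg4 form another pair. Psmg1 (chr16:95979933-95990960, minus strand) stood at 10.2, 11.1 and 10.6 CPM in I/R and at 17.1, 13.4 and 16.5 in I/R+Rk2, which is 0.56 ± 0.13 on the log2 fold scale (edgeR adjusted p = 0.0120), and stayed called whichever library was left out (at most 0.0459). Psmg4 had 3.23, 2.93 and 3.31 CPM against 4.08, 5.42 and 4.05 (0.52, edgeR adjusted p = 0.0556), Psmg3 had 8.13, 7.92 and 6.78 against 10.8, 8.53 and 10.2 (0.37, adjusted p = 0.0730), and Psmg2 had 10.1, 11.0 and 8.89 against 13.1, 12.6 and 11.5 (0.31, adjusted p = 0.0780). Groups overlapped in none of the 4, and 1 of 4 was called, beside 27.1% of all genes that were higher without overlap and 20.3% that were called higher. In the shortest of the 8 length groups, which holds all 4, 33.0% of genes were called higher. The summed level of the 4 chaperones was 31.6, 32.9 and 29.5 CPM in I/R and 45.0, 40.0 and 42.2 in I/R+Rk2. All 4 transcripts were short (514.5 to 1179.5 bases); with the length trend removed their median fell from 0.45 to 0.18, all 4 stayed above 0 and none was called (Psmg1 0.34, adjusted p = 0.0687). Pomp, the maturation factor that works with them on the half-assembled core and was listed apart because of its name, rose from 82.1, 81.4 and 83.6 CPM to 100, 96.3 and 98.9 (0.26 ± 0.07, edgeR adjusted p = 0.0237), a call kept only without I/R+Rk2 replicate 1 among the 6 fits that left out a library (highest adjusted p = 0.0736) and lost with the length trend removed (0.14, adjusted p = 0.162).

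Among the 3 chaperones of the cap base, Psmd10 (gankyrin) rose from 7.92, 7.10 and 8.49 CPM to 9.96, 9.95 and 10.9 (0.39 ± 0.12, edgeR adjusted p = 0.0366), without overlap. That call was lost whichever library was left out (adjusted p from 0.0541 to 0.103). Psmd9 had 24.0, 21.9 and 22.2 CPM against 23.5, 29.8 and 31.7 (0.32, edgeR adjusted p = 0.0801) and was called without I/R+Rk2 replicate 1 (0.0116). Psmd5 had 31.8, 30.4 and 29.9 CPM against 36.7, 31.4 and 31.1 (0.11, edgeR adjusted p = 0.392). In Psmd9 the low treated liver was replicate 1, the liver that was highest for Psmd5.

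Genes that feed the proteasome or regulate it gave a mixed picture. The 14 tested partners of the complex outside the naming rule had a median log2 fold change of 0.14. Of these, 3 were called higher (21.4%, against 20.3% of all genes tested) and 0 lower (against 23.7%). Besides Pomp they were the shuttle receptors Ubqln1 (120, 130 and 130 CPM against 165, 155 and 146; 0.30, edgeR adjusted p = 0.0255) and Rad23b (153, 179 and 170 against 220, 208 and 190; 0.30, adjusted p = 0.0430), which carry ubiquitinated proteins to the cap. Leaving out 1 library ended the Ubqln1 call in 5 of 6 fits, all but that without I/R+Rk2 replicate 3, and the Rad23b call in 4, all but those without I/R replicate 2 or I/R+Rk2 replicate 3 (highest adjusted p = 0.0733 and 0.115). With library size alone Pomp, Ubqln1 and Rad23b were not called (adjusted p = 0.468, 0.317 and 0.328). Ubqln1 and Rad23b, unlike Pomp, stayed called with the length trend removed (0.44 and 0.45, edgeR adjusted p = 0.00826 and 0.0139). Of 10 tested genes of the NRF1 and p97 axis, 2 were called lower (against 23.7% of all genes tested) and 0 higher (against 20.3%). The share called lower was thus near the background and not above it. The median of these 10 genes was -0.18. Nfe2l2 (NRF2), the oxidative stress regulator that binds the same promoter element as NRF1, fell from 70.7, 86.7 and 85.5 CPM to 53.8, 50.4 and 40.7 (-0.74 ± 0.13, edgeR adjusted p = 0.00471), a call kept in all 6 fits that left out a library and with the length trend removed. Nploc4, a cofactor of the p97 segregase, fell by 0.32 on the log2 scale (adjusted p = 0.0269), but not without I/R replicate 1, I/R replicate 2, I/R+Rk2 replicate 2 or I/R+Rk2 replicate 3 (0.0752, 0.0804, 0.0936 and 0.0648), nor with the length trend removed (-0.15, adjusted p = 0.260). Nfe2l1 itself, named here after its values were seen, had 38.1, 42.1 and 51.1 CPM against 33.9, 27.1 and 42.8 (-0.34, edgeR adjusted p = 0.169). Syvn1, the membrane ubiquitin ligase that turns NRF1 over, had -0.49 (adjusted p = 0.132). Nfe2l1 was called lower with library size alone (-0.50, edgeR adjusted p = 0.0441), a scaling that lowered the median of all genes to -0.17.

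Upstream in the pathway, of the 2 ubiquitin-activating enzymes, Uba6 fell from 7.61, 5.42 and 5.02 CPM to 3.61, 2.72 and 3.87 (-0.83 ± 0.23, edgeR adjusted p = 0.0230), not called without I/R replicate 1 (0.0781) or I/R+Rk2 replicate 2 (0.0709), nor with the length trend removed (-0.60, 0.0657). The 29 tested ubiquitin-conjugating enzymes had 4 called higher and 3 lower (24.1% in all, against 43.9% of all genes), with median 0.02. By smallest p they were led by Ube2e2 (0.55, edgeR adjusted p = 0.00581), Ube2s, which extends chains for the anaphase-promoting complex (-0.76, adjusted p = 0.00748), and Ube2z, which works with Uba6 (-0.39, adjusted p = 0.00758). All 3 calls were kept in each fit that left out a library, but that of Ube2z was lost with the length trend removed (-0.22, adjusted p = 0.0528).

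Because NRF1 acts through the antioxidant response element, promoters were searched for its letters. A RefSeq promoter (GRCm38.p6, which is mm10) was matched for 38 of the 46 members, and the 250 bases before the start were read on both strands. The element TGACNNNGC was in 5 of 38 members (13.2%) and in 10.2% of all 32851 promoters. An interferon response core, GAAANNGAA, was in 3 of 38 (7.89%) against 7.13%, and the CCAAT box in 13 of 38 (34.2%) against 33.8%. Members were counted per gene, by any matching promoter, and the background per promoter, so the shares differ in unit. With that limit they lay near the background, and a match is a description of letters only. Windows of up to 25 bases on either side of the match are shown for 3 members with the element and for Psmb3, where the interferon core was found, to let the letters be set beside the values above. Capitals mark the match, which is on the reverse strand in Psmc6, Psmd12 and Psmb3.
Psmd9 (chr5:123228134-123228189, plus strand): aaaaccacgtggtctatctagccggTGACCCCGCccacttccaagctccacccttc
Psmc6 (chr14:45329574-45329630, plus strand): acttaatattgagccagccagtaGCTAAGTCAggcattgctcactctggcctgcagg
Psmd12 (chr11:107479278-107479314, plus strand): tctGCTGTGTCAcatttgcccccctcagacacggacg
Psmb3 (chr11:97703247-97703305, plus strand): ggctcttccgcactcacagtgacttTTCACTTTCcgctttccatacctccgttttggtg
The match lay 31 to 23 bases before the start in Psmd9, 227 to 219 in Psmc6, 247 to 239 in Psmd12 and 162 to 154 in Psmb3. Psmb5 and Psmb6 also held the antioxidant element. None of the 5 genes with it was called: the log2 fold changes were 0.04 for Psmb5, 0.15 for Psmb6, -0.12 for Psmc6, 0.06 for Psmd12 and 0.32 for Psmd9. A promoter was matched for 6 of the 7 called members (not for Psmb2), and these windows held neither it nor the interferon core.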

How the data were processed

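RNA from 6 mouse livers was sequenced, 3 per group. Per the labels, the submitters' processing notes name FastQC 0.11.5, HISAT2 2.2.1, StringTie 1.3.3 and the mm10 genome; the annotation and the strand setting are not given in the sources used here. The authors deposited whole-number counts per gene (15454 rows) and FPKM (21948 rows), and both tables were used as deposited. Counts were tested in R 4.3.3 with edgeR 4.0.16 (filterByExpr, TMM scaling, quasi-likelihood F test, no covariates) in place of the DESeq2 test of the study, which was run as an alternative (DESeq2 1.42.0). P-values were adjusted by Benjamini-Hochberg over 12411 genes. CPM are counts per 1000000 of TMM-scaled library size, standard errors are the absolute log2 fold change divided by the square root of F, and intervals are 95%. FPKM served for levels between genes, for the 3 ratios (two-sided exact permutation test) and for limma 3.58.1 on log2(FPKM + 1) or log2(FPKM + 0.1), whose fold changes understate low genes. Transcript lengths and positions came from GENCODE M21 (mm10), and near-identical transcripts were those with at least 95% identity over at least 20% of the longest transcript. The edgeR fit was tested on simulated data. Every member may be named, with at most 3 genes of smallest p from each other pathway list and any gene of a list of 4 or fewer. Some results of the other pathway lists are not reported here. Members and lists were chosen with earlier results of these data known. Replicate pairs differed by more than counting noise (chi-square per degree of freedom 31.4 to 74.8), and same-numbered livers of the groups did not deviate together (Pearson r -0.0313 to 0.0477 across genes). Depth was 16809613 to 35618074 counts per library. Alternatives covered scaling, low-count filters, tools, a length correction, a replicate block and each library left out.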

Additional observations from a re-analysis of the deposited data

How the results depend on the processing

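Most calls changed with the scaling or with transcript length. Members called higher numbered 7, and 16 with upper-quartile scaling, 0 with library size alone, 1 with each of the 3 limma fits on FPKM (Psme1) and 1 with the length trend removed (Psmd5). Members called lower numbered 0, and 3 with library size alone, 1, 1 and 3 with limma on log2(FPKM + 1), on log2(FPKM + 0.1) and on log2(FPKM + 1) without a filter, and 1 with the length trend removed. Psme3 was among them with library size alone and in each limma fit. Leaving out 1 library gave 3 to 5 called higher, 0 to 1 lower (Psme3, without I/R+Rk2 replicate 1), and 1640 to 2401 of all genes higher. The count of 3 arose without I/R replicate 2, I/R replicate 3 or I/R+Rk2 replicate 2, and Psme1, Psme2 and Psmg1 were called in all 6 of these fits. All genes called higher numbered 2516, and 2884 with upper-quartile scaling, 1320 with library size alone and 2380 with the length trend removed. All genes called lower numbered 2938, and 2691, 3481 and 2529 with these 3 settings in the same order. The 3 limma fits, in the order above, called 1172, 1148 and 1124 of all genes higher and 2670, 2633 and 3009 lower.

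The median log2 fold change of the members was 0.11. It was 0.17 with upper-quartile scaling, -0.0469 with library size alone, -0.095, -0.098 and -0.073 with the limma fits, -0.0112 with the length trend removed, and 0.0744 to 0.159 without 1 library. For the core (0.18) the same settings gave 0.23, 0.0156, -0.0014, -0.0014, 0.0048, -0.0135 and 0.14 to 0.20. For the cap (-0.03) they gave 0.025, -0.19, -0.193, -0.198, -0.193 and -0.05, and -0.0723 to 0.0599 without 1 library. For the regulators (0.33) they gave 0.38, 0.16, 0.142, 0.155, 0.142, 0.17 and 0.30 to 0.35, and 0.31 with at least 10 counts in every sample. Members lay above the median of all genes by 0.122 under TMM, relative log expression and upper-quartile scaling and by 0.123 with library size alone, and by 0.0267 and 0.0475 with the filtered limma fits, but -0.0238 (below it) with limma without a filter and -0.026 with the length trend removed. Library size alone moved the median of all genes to -0.17, and the filtered limma fits to -0.122 and -0.145.

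Directions turned mainly in genes that had not passed. Members above 0 fell from 34 to 22 of 45 with the length trend removed and to 20 with library size alone; the values that follow are only for genes whose fold change the report gives. With the length trend removed the log2 fold change was -0.16 for Psma5, -0.0169 for Psmb3, -0.21 for Psmb5, -0.0935 for Psmb6, -0.0135 for Psmb7, -0.0112 for Psmd12, 0.17 for Psme4 and -0.10 for Psmb10. With library size alone it was -0.16 for Psma5, -0.12 for Psmb5, -0.0147 for Psmb6, -0.11 for Psmd12, -0.0528 for Psmd5 and -0.11 for Psmb10. With the limma fits in the order above it was -0.0852, -0.0866 and -0.0852 for Psma3, which had been called, -0.141, -0.144 and -0.141 for Psma5, -0.121, -0.122 and -0.121 for Psmb5, -0.0113, -0.0114 and -0.0113 for Psmb6, -0.140, -0.143 and -0.140 for Psmd12, -0.146, -0.163 and -0.146 for Psmf1, and -0.0527, -0.055 and -0.0527 for Psmb10. Psma5 was at -0.0027 without a filter and at -0.0146 with at least 10 counts in every sample. Without 1 library, Psma5 ranged from -0.032 to 0.0378, Psma8 from -0.23 to 0.66, Psmb10 from -0.0707 to 0.241, and the log2 difference of the Psmb10 to Psmb7 ratio from -0.18 to 0.15. The cause of these changes was not tested beyond what the settings themselves alter.

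The replicate numbers did not pair the livers. With a replicate block, 5 members were called higher and 0 lower (2118 and 2595 of all genes), and the calls of Psma3, Psmd10, Psmb8, Psmb9, Ubqln1, Rad23b and Nploc4 were lost (adjusted p from 0.0543 for Psmd10 to 0.0736 for Rad23b), while Syvn1 was called lower (0.0359). The ratios from raw counts kept their direction, as did the core to cap ratio from summed FPKM, which was added after the data were seen. DESeq2 changed no call among the named genes. Depth limits Psma8 (under 1 CPM) and Psmb11 (1 count per library).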
